A study of Mus musculus with 2 samples.

Results

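The 10 genes described here encode replacement histones, the variant forms of H2A, H3 and the linker histone H1 that cells make outside DNA replication. They were taken by gene symbol (*H2afx*, *H2afz*, *H2afv*, *H2afy*, *H2afy2*, *H2afj*, *H1f0*, *H1fx*, *H3f3a* and *H3f3b*), and all 10 were among the 23183 genes of the deposited tables. The tables hold mRNA sequencing of 2 libraries from mouse lung cancer cells, 1 of KPR- cells at 0 h and 1 of KPR restored cells at 16 h. KPR- cells are an immortalized line grown from a lung tumor of a KPR L/F mouse kept off tamoxifen, in which adenoviral Cre had activated oncogenic *K-Ras* and deleted *p53* and the floxed *Runx3* allele. The other *Runx3* allele is held off by an *Frt-Stop-Frt* cassette, which 4-hydroxytamoxifen (4-OHT) removes through Flp ERT2 recombinase to give KPR restored cells. Both libraries therefore share activated *K-Ras* and deleted *p53*, and whether the line is 1 clone is not given in the sources used here. The sample records give the genotypes as RUNX3 -/- and RUNX3 -/+ and list 1 μM 4-OHT for both libraries, although 4-OHT is what separates the cell states in the study.

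Each condition has 1 library, so no difference below has a replicate check and no test of the conditions was possible. The values are FPKM, fragment numbers divided by transcript length and library depth, with totals of 521340 and 523647. The depth behind them was estimated as 21.7 M (KPR-) and 22.6 M (KPR restored) fragments, and every 95% interval below covers counting error only. *Runx3* had 0.348 and 0.349 FPKM, so the gene-level value does not check the labels, and directions below compare the library labelled KPR restored with that labelled KPR-. Genes with a mean FPKM of 1 or more over both libraries, 11231 in all, are called expressed. Of 12 epithelial lung markers, 5 were expressed (*Epcam*, *Cdh1*, *Krt8*, *Krt18* and *Krt19*), while *Sftpc*, *Sftpb*, *Sftpa1*, *Napsa*, *Lamp3* and *Scgb1a1* were listed at 0 in both libraries. *Nkx2-1*, the lung lineage factor, had 0.0444 and 0.0216 FPKM. Of 6 mesenchymal markers, 2 were expressed. *Vim* had 1777 and 1464 FPKM, and *Col1a1* had 12.2 and 4.21 FPKM, a log2 difference of -1.53 (interval -1.68 to -1.39) whose part in the results below was not tested. The other 4 were at 0.363 FPKM or less in both libraries. Of the leukocyte markers, *Adgre1* and *Cd3e* were listed at 0 in both, and *Cd68* had 3.08 and 6.78 FPKM. Over 4 endothelial markers the sums were 1.17 and 2.22 FPKM.

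The core of a nucleosome is built from H2A, H2B, H3 and H4, and H1 binds the linker DNA. Most of these proteins come from clustered, intronless genes that are switched on in S phase, and their mRNAs end in a conserved stem-loop in place of a poly(A) tail. Replacement variants are made through the cell cycle, mostly from polyadenylated mRNAs, and are placed in chromatin by dedicated chaperones. H3.3 marks active genes, H2A.Z flanks promoters, H2AX is phosphorylated around DNA breaks, and the macroH2A proteins are found in silenced chromatin. Because poly(A) RNA was selected, tail-less histone mRNA was captured only in part.

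The sequence that separates these mRNA classes is the stem-loop, so the members' transcripts were searched for it on the mRNA strand with the histone stem-loop consensus of 16 bases, in which 5 positions may hold any base. Of the 10 members, 1 held it, *H2afx*, compared with 44 of 68 replication-dependent histone genes and 18 of 10795 other expressed genes (0.167%). The match in *H2afx* lies in its only exon, at chr9:44335240-44335255 of GRCm38 (plus strand), in the 3′ UTR, where 49 bases separate it from the last coding base of the annotation. The annotated transcript then runs on for 822 bases. A poly(A) signal hexamer (AATAAA or ATTAAA) was found in the last 50 bases of the transcripts of 9 of the 10 members, *H2afx* among them, and not in that of *H2afy*. Such a hexamer was found in 17 of 68 replication-dependent genes and in 79.3% of the other genes. *H2afx* is known to give both a short mRNA that ends at the stem-loop and a longer polyadenylated one, and FPKM per gene does not separate them. The stretch of *H2afx* is shown with those of the 5 replication-dependent genes with the highest mean FPKM among genes that hold the pattern. Capitals mark the 16 bases of the stem-loop, written as DNA and 5′ to 3′ on the mRNA strand, with 5 bases on each side.
H2afx: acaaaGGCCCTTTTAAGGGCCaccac
Hist3h2a: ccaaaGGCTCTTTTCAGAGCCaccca
Hist1h4i: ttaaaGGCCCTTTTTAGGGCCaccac
Hist1h1c: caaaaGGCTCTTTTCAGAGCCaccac
Hist1h4d: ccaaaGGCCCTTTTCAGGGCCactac
Hist1h1e: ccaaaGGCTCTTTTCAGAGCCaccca
The stem-loops of *Hist1h4i* and *Hist1h4d*, which encode H4, differ from that of *H2afx* at 1 base, and those of *Hist3h2a* (H2A), *Hist1h1c* and *Hist1h1e* (H1) at 3 bases.

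Of the 10 members, 1 was lower and 0 were higher by at least 0.5 in log2 units, and the lower gene was *H2afx*. It encodes H2AX, the variant whose phosphorylated form marks DNA double-strand breaks. It lies on chromosome 9 from 44334694 to 44336077 and had 93.3 FPKM in KPR- against 58.6 in KPR restored. The ratio was 0.628, which is -0.67 as a log2(FPKM + 0.005) difference (counting interval -0.76 to -0.58), from about 2397 and 1538 fragments. Of expressed genes, 9.29% were lower and 12.1% were higher by 0.5 or more, and the members' counts are close to these shares. Of the 6725 genes at a mean FPKM of 10 or more, 6.54% were lower and 9.31% were higher by as much, and 171 of them (2.54%) had a difference as low as that of *H2afx* or lower.

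**Figure D1:**
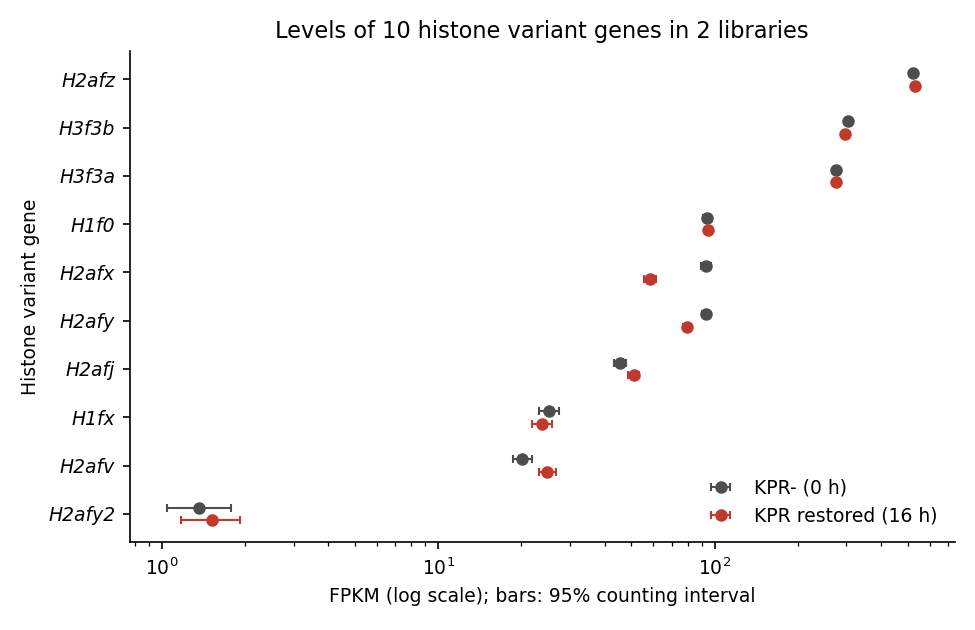
FPKM (x axis, log scale) of each histone variant gene (y axis) in the KPR- library (grey) and the KPR restored library (red), 1 library each, with bars for the 95% counting interval. *H2afx* moves from 93.3 to 58.6 FPKM, while *H2afz*, *H3f3b*, *H3f3a* and *H1f0* lie at almost the same place in both libraries.

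The difference of *H2afx* was compared with that of each other member by a counting interval (normal approximation on the log scale). It was lower than all 9, by 0.44 (interval of the difference -0.56 to -0.33) against *H2afy* at the least and by 0.97 (-1.15 to -0.80) against *H2afv* at the most. Because *H2afx* had the lowest difference of the 10, its place below the other 9 was fixed in advance. The intervals do not allow for that choice. With the shortest coding transcripts, a choice made after the values were seen, which gives fewer fragments, all 9 intervals were still below 0. The 9 other members summed to 1379 FPKM in KPR- against 1378 in KPR restored, so their total was nearly the same in both libraries. With *H2afx* included, the 10 members summed to 1473 and 1436 FPKM. Their median log2 difference was 0.012, beside 0.0086 over all expressed genes.

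H3.3 comes from *H3f3a* (chromosome 1, 180800832 to 180813943, minus strand) and *H3f3b* (chromosome 11, 116021912 to 116027962, minus strand), which encode the same protein. In the annotation their coding sequences of 408 bases without the stop codon differ at 95 bases, yet 0 of the 136 codons encode another residue. *H3f3a* had 273.9 FPKM in KPR- against 274.9 in KPR restored, with a log2 difference of 0.0054 (interval -0.026 to 0.037). *H3f3b* had 303.0 and 297.1 FPKM, a log2 difference of -0.028 (interval -0.065 to 0.0083). Neither gene differed between the libraries beyond counting error. With the shortest coding transcript the interval of *H3f3a* was -0.13 to 0.14, while that of *H3f3b* was the same. *H3f3a* made up 47.5% of the FPKM of both genes in KPR- and 48.1% in KPR restored, and the difference between the genes' changes was 0.034 (interval -0.015 to 0.082). The longest stretch that their transcripts share is 23 bases, but *H3f3a* shares stretches of 50 bases or more with 38 other annotated genes and *H3f3b* with 3, so reads of such copies may be split between genes.

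H2A.Z is likewise made from 2 genes, *H2afz* (chromosome 3, 137864487 to 137866922, plus strand) and *H2afv* (chromosome 11, 6427229 to 6444443, minus strand). Their coding sequences of 384 bases differ at 80 bases, and 3 of 128 codons encode another residue. *H2afz* was the highest of the 10 members, with 523.7 and 530.6 FPKM, above 98.7% and 98.8% of expressed genes. Its log2 difference was 0.019 (interval -0.021 to 0.059). *H2afv* had 20.2 FPKM in KPR- against 24.8 in KPR restored, with a log2 difference of 0.30 (interval 0.15 to 0.45). This was the highest difference of the 10 members, and it was above that of *H2afz* by 0.28 (interval 0.13 to 0.44), though under the threshold of 0.5. With the shortest coding transcripts these intervals were -0.033 to 0.64 for *H2afv* and -0.052 to 0.62 for the pair, so neither was then beyond counting error. *H2afz* was 25.98 times as high as *H2afv* in KPR- and 21.4 times as high in KPR restored, and its share of the H2A.Z FPKM was 96.3% and 95.5%.

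The promoters of this pair are shown because the genes encode nearly the same protein at levels more than an order of magnitude apart. Each window runs from 250 bases before the start to 50 bases after it (RefSeq, GRCm38.p6), and capitals mark CCAAT, a motif bound by the factor NF-Y, read on either strand (CCAAT or ATTGG).
H2afz: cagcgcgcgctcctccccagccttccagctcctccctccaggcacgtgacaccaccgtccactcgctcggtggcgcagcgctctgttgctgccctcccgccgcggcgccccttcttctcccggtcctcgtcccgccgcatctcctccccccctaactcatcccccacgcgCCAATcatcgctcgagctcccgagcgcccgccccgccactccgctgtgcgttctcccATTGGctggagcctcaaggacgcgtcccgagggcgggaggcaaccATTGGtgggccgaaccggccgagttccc
H2afv: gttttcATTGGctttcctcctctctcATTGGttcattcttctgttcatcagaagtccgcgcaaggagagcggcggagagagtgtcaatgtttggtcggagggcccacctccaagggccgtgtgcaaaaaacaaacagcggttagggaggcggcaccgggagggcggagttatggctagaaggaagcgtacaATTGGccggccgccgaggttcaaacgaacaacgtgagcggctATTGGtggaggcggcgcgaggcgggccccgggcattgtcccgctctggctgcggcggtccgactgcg
The window of *H2afz* is chr3:137864237-137864536 (plus strand) with 3 matches, and that of *H2afv* is chr11:6444394-6444693 (minus strand) with 4 matches. Promoter windows were matched for 9 members, without *H2afx*, and 6 of the 9 held CCAAT, compared with 37.4% of 32851 promoters. The windows of *H3f3b*, with 4 matches, and of *H3f3a*, *H2afj* and *H2afy2* were the others that held it. Those of *H2afy*, *H1f0* and *H1fx* did not. Of 62 replication-dependent genes with a window, 53 held this motif. The TATA box letters TATAAA, on either strand, were found in 1 member, *H3f3b*, in 35 of the 62 replication-dependent genes and in 13.6% of all promoters. Sites of the E2F factors (TTTCCCGC, TTTGGCGC, TTTCGCGC or TTTGCCGC) were also searched. They were found in 0 of the 9 members, in 10 of the 62 replication-dependent genes and in 2.26% of all promoters.

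The macroH2A genes carry a large domain fused to an H2A-like part. *H2afy* (macroH2A1; chromosome 13, 56073619 to 56136361, minus strand) had 93.1 FPKM in KPR- against 79.3 in KPR restored, with a log2 difference of -0.23 (interval -0.30 to -0.16.) The difference was beyond counting error, yet under 0.5. *H2afy* is known to be spliced to macroH2A1.1 and macroH2A1.2, which these values per gene do not separate. *H2afy2* (macroH2A2; chromosome 10, 61738665 to 61784147, minus strand) was the lowest member, with 1.37 and 1.52 FPKM from about 59 and 67 fragments. Its log2 difference of 0.15 had an interval of -0.39 to 0.67, so neither a difference of 0.5 nor the absence of one could be seen at this depth. *H2afy* made up 98.6% and 98.1% of the macroH2A FPKM.

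*H2afj* (chromosome 6, 136808244 to 136810074, plus strand) encodes H2A.J, a variant close to canonical H2A that is known to accumulate in senescent cells. It had 45.4 FPKM in KPR- against 50.9 in KPR restored, with a log2 difference of 0.16 (interval 0.068 to 0.26.) The sign was opposite to that of *H2afx*. With the shortest coding transcript the interval was -0.041 to 0.37, so the difference was beyond counting error with the longest transcript only. Like *H2afx*, *H2afj* has 1 exon and shares stretches of 50 bases or more with other H2A genes, but it has no match to the stem-loop pattern.

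The linker histone variants *H1f0* and *H1fx* are also single-exon genes. *H1f0* (chromosome 15, 79028450 to 79030504, plus strand), whose product H1.0 accumulates in cells that leave the cycle, had 93.65 and 94.96 FPKM, a log2 difference of 0.020 (interval -0.045 to 0.085). *H1fx* (chromosome 6, 87980421 to 87981637, minus strand) had 25.1 and 23.7 FPKM, a log2 difference of -0.082 (interval -0.26 to 0.091). Neither difference was beyond counting error. *H1f0* made up 78.8% and 80.0% of the FPKM of both.

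In KPR-, the order of levels was *H2afz*, *H3f3b*, *H3f3a*, *H1f0*, *H2afx*, *H2afy*, *H2afj*, *H1fx*, *H2afv* and *H2afy2*. The counting intervals of *H1f0* (90.7 to 96.7), *H2afx* (89.6 to 97.1) and *H2afy* (90.1 to 96.1) overlapped, so these 3 neighbours could not be ordered in KPR-. In KPR restored they stood apart, at 94.96 (92.0 to 98.0), 58.6 (55.7 to 61.6) and 79.3 FPKM (76.7 to 82.1). *H1fx* and *H2afv* changed places between the libraries, with overlapping intervals in KPR restored (21.8 to 25.9 and 23.1 to 26.6 FPKM). A difference under 0.1 in size was found for 5 of the 10 members, *H2afz*, *H1f0*, *H1fx*, *H3f3a* and *H3f3b*, compared with 25.4% of genes at a mean FPKM of 10 or more.

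**Figure D2:**
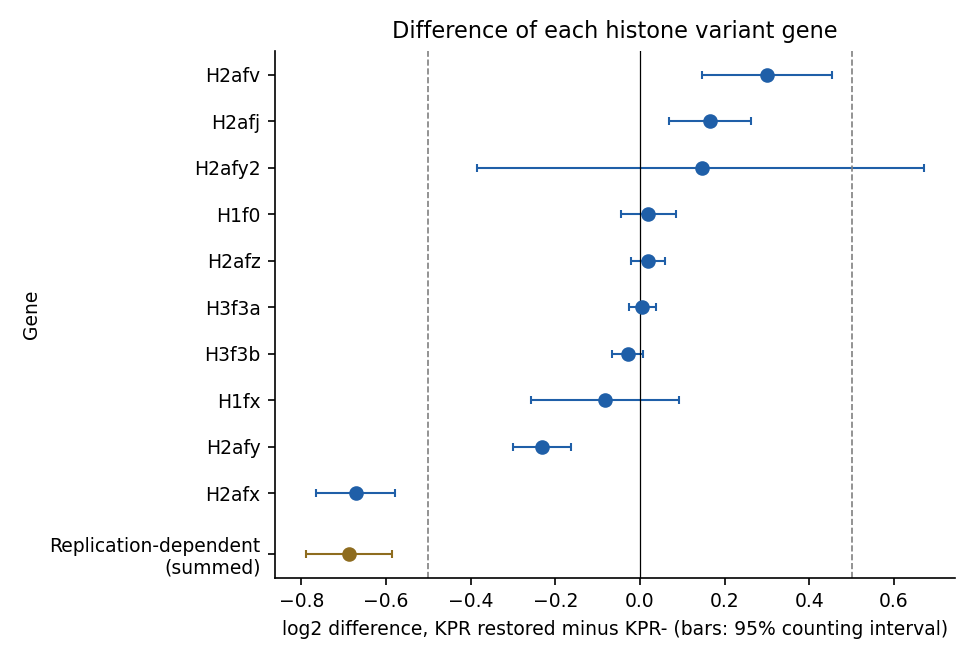
The log2 difference between KPR restored and KPR- (x axis) of each histone variant gene (blue, y axis) and of the summed estimated fragments of 67 replication-dependent histone genes (brown). Bars are 95% counting intervals and dashed lines mark 0.5 either way, and *H2afx* at -0.67 lies beside the replication-dependent sum at -0.69, apart from the other 9 genes. Of this sum, *Hist1h1d* held about 441 fragments in KPR- and 180 in KPR restored, so its place beside *H2afx* depends in part on 1 gene.

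The members are set against the 68 replication-dependent histone genes of the tables. These summed to 101.7 FPKM in KPR- against 64.7 in KPR restored, and the members made up 93.5% and 95.7% of the FPKM of both classes together. Fragments could be estimated in both libraries for 67 of the 68, without *Hist1h4k*. On these, about 2069 and 1306 fragments, the log2 ratio was -0.69 (interval -0.79 to -0.59). The difference of *H2afx* exceeded this ratio by 0.016, with an interval of -0.12 to 0.15. Within this interval the 2 changes could not be told apart. Of the summed fragments, *Hist1h1d* held about 441 in KPR- and 180 in KPR restored, at 2.81 and 1.10 FPKM. Such counts are upper estimates where transcripts vary in length. The ratio without *Hist1h1d* was not computed, so the closeness of the sum to *H2afx* depends in part on this gene. On summed FPKM the log2 ratio of the 68 genes was -0.65. Of the 22 expressed replication-dependent genes, 15 were lower and 0 were higher by 0.5 or more, beside the 9.29% and 12.1% of all genes given above. Their median was -0.70, and it was -0.41 over all 68 genes. *Hist1h2bh* went from 2.60 to 0.144 FPKM, with about 84 and 5 fragments, and *Hist1h4h* from 1.98 to 0.198 FPKM, with about 12 and 1. *Hist1h4d* had 5.47 and 2.21 FPKM. *Hist1h4k*, at 1.33 and 1.79 FPKM, was the only expressed gene of the class above 0. By class, the summed FPKM of the H3 genes went from 7.95 to 4.03, of the H4 genes from 22.0 to 12.3, of the H2B genes from 26.9 to 18.3, of the H1 genes from 15.0 to 9.88 and of the H2A genes from 29.9 to 20.1. On estimated fragments the H2A genes had 397 and 347, a log2 ratio of -0.20 (interval -0.42 to 0.0076) that was not beyond counting error, and *Hist3h2a* held 243 and 249 of these. This interval lies above that of *H2afx* (-0.76 to -0.58), while on summed FPKM the log2 ratio of the H2A genes was -0.57. The log2 ratios of the other classes on fragments ran from -1.03 (H4) to -0.63 (H2B). The H3.3 genes together had 72.6 times the FPKM of the replication-dependent H3 genes in KPR- and 142 times in KPR restored, as captured by poly(A) selection, whose part in the ratio was not tested.

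**Figure D3:**
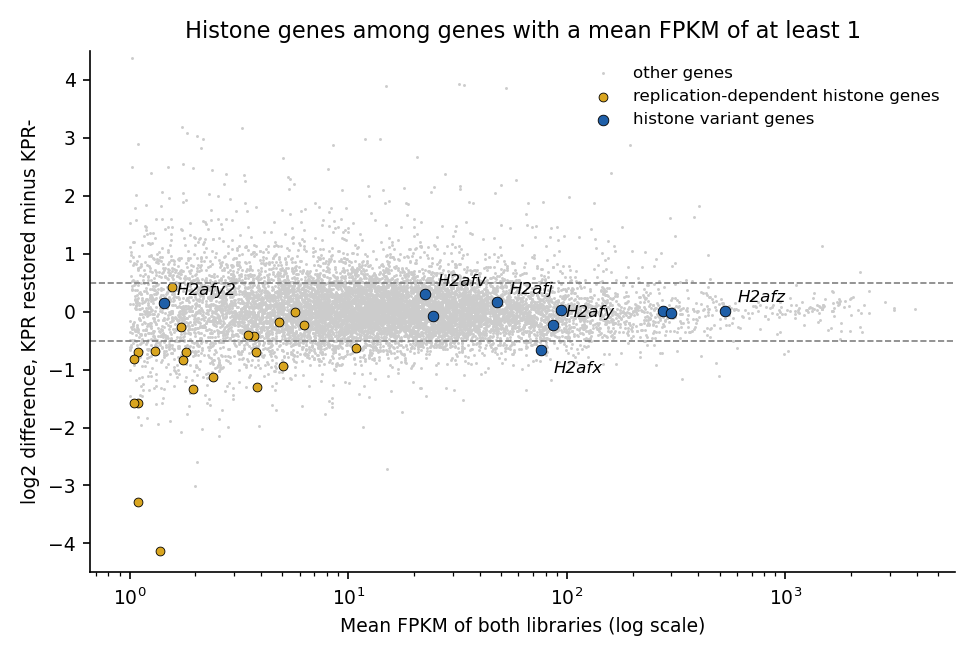
Mean FPKM of both libraries (x axis, log scale) against the log2 difference between KPR restored and KPR- (y axis) for expressed genes, with histone variant genes in blue, replication-dependent histone genes in yellow and other genes in grey. Of the variants, *H2afx* lies at -0.67 and the other 9 lie from -0.23 (*H2afy*) to 0.30 (*H2afv*). The replication-dependent genes lie mostly below -0.5 at low FPKM, and 19 genes fall outside the y axis.

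*H2afx* shares stretches of 50 bases or more with 21 other annotated genes, at the longest 117 bases with *Hist2h2aa2*, so some reads could be assigned to either. For *H2afx*, about 2397 and 1538 fragments were estimated in KPR- and KPR restored. All replication-dependent H2A genes together had about 397 and 347. These numbers describe reads after assignment, so the part of shared reads in the difference of *H2afx* was not tested. *Gm44335* overlaps *H2afx* on the other strand, and in all 7 members overlap another annotated gene, *H2afz*, *H2afv* and *H3f3b* being the 3 that do not. For *H1fx* an overlapping gene, *Gm47286*, lies on the same strand. The libraries were directional, but whether strand was used in counting is not given in the sources used here.

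S phase genes had differences of the same sign as *H2afx* and most expressed replication-dependent genes. Of 16 S phase markers, 11 were lower and 0 were higher by 0.5 or more, beside 9.29% and 12.1% of all expressed genes. All 16 were below 0, with a median of -0.59, and the highest were *E2f1* (-0.060), *Pcna* (-0.10) and *Mcm7* (-0.16). The 16 markers summed to 1341 FPKM in KPR- and 994 in KPR restored. *Ccne2*, a cyclin of S phase entry, had 4.42 and 1.89 FPKM, a log2 difference of -1.22. *Mcm6*, a subunit of the replicative helicase, had 86.6 and 45.8 FPKM, and *Rrm2*, which makes deoxynucleotides, had 119 and 64.9 FPKM. *H2afx* at -0.67 lay within the range of the 16 markers, -1.22 to -0.060. This wide range also held *H2afy* (-0.23) and *H1fx* (-0.082), so a place in it is not particular to *H2afx*. The part of fewer cells in S phase in the difference of *H2afx* was not tested, and in bulk RNA fewer such cells and less RNA per cell cannot be told apart.

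The factors that deposit or remove the variants were described by lists. Beside their counts stand the shares of all expressed genes past 0.5, which were 9.29% lower and 12.1% higher. Of 9 genes for H3.3 deposition, 2 were lower and 0 were higher by 0.5 or more, with a median of -0.19, while the H3.3 genes themselves were near 0. *Dek*, a chromatin protein that guides H3.3, had 100.4 FPKM in KPR- against 61.6 in KPR restored, with a log2 difference of -0.71. *Atrx* and *Daxx* form the complex that places H3.3 in heterochromatin, and their differences had opposite signs. *Atrx* had 24.63 and 16.99 FPKM (-0.54, interval -0.60 to -0.48), whereas *Daxx* had 13.1 and 16.2 FPKM (0.30, interval 0.16 to 0.45). *Hira*, the chaperone for active genes, had 14.4 and 12.7 FPKM, a log2 difference of -0.19. The H3-H4 chaperones *Asf1a* and *Asf1b* also differed in sign. *Asf1a* had 11.5 and 14.3 FPKM (0.31), and *Asf1b*, the form tied to proliferation, had 29.6 and 21.9 FPKM (-0.43). *Ubn1*, a partner of *Hira*, had 9.63 and 10.5 FPKM (0.12).

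Of 17 genes for H2A.Z exchange, 2 were higher and 1 was lower by 0.5 or more, with a median of 0.0079. These counts are close to the shares of all expressed genes, 12.1% higher and 9.29% lower. *Vps72*, which encodes YL1, the subunit that binds H2A.Z in both loading complexes, had 39.9 FPKM in KPR- against 67.1 in KPR restored, with a log2 difference of 0.75 (interval 0.64 to 0.86). *Dmap1*, another shared subunit, had 10.6 and 15.9 FPKM (0.58). *Srcap*, the motor of a loading complex, had 24.43 and 16.98 FPKM (-0.52, interval -0.58 to -0.47). *Anp32e*, which removes H2A.Z from chromatin, had 95.9 and 69.2 FPKM (-0.47), and *Trrap*, a scaffold of the TIP60 complex, had 21.6 and 15.8 FPKM (-0.45). *Kat5*, the acetyltransferase of that complex, had 26.1 and 32.6 FPKM (0.32). The list thus held differences in both directions around a nearly level *H2afz*.

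Of the 12 genes that phosphorylate, dephosphorylate or read H2AX, 11 were expressed, and their median was -0.24. By 0.5 or more, 2 were lower and 0 were higher, beside 9.29% and 12.1% of all expressed genes. *Atm*, the main kinase for H2AX at breaks, had 6.88 FPKM in KPR- against 3.61 in KPR restored, with a log2 difference of -0.93 (interval -1.06 to -0.80). *Atr*, the kinase of stalled forks, had 5.76 and 4.04 FPKM (-0.51). *Mdc1*, the mediator that binds phosphorylated H2AX, had 20.01 and 14.53 FPKM (-0.46). *Eya2* and *Rnf8* had the highest differences of the list, 0.26 and 0.18. *Eya2* belongs to the phosphatases that act on H2AX, and *Rnf8* is a ubiquitin ligase recruited through *Mdc1*.

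Of 18 replication-coupled and general histone chaperones, 16 were below 0, with a median of -0.27. By 0.5 or more, 3 were lower and 1 was higher, beside 9.29% and 12.1% of all expressed genes. *Mms22l*, which acts at stalled forks, had 7.21 and 4.45 FPKM (-0.69). *Supt16*, a subunit of FACT, had 48.3 and 31.8 FPKM (-0.60), and *Mcm2*, which binds H3-H4 at the fork and is also among the S phase markers, had 85.5 and 60.3 FPKM (-0.50). *Spty2d1*, an H3-H4 chaperone, had 8.55 and 12.6 FPKM (0.56), and *Supt6* had 36.2 and 38.1 FPKM (0.074).

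Of 15 expressed genes for the synthesis and processing of stem-loop histone mRNA, 1 was lower and 1 was higher by 0.5 or more. These counts are close to the shares of all expressed genes, 9.29% and 12.1%, and the median of the list was -0.17. *Slbp*, which binds the stem-loop shown above, had 54.9 FPKM in KPR- against 40.7 in KPR restored, with a log2 difference of -0.43 (interval -0.53 to -0.34). *Npat*, the activator of the clustered histone genes, had 7.32 and 6.94 FPKM (-0.077, interval -0.21 to 0.057). *Lsm10* and *Lsm11* are the U7 snRNP proteins of histone mRNA cleavage. *Lsm10* had 10.4 and 16.1 FPKM (0.63), and *Lsm11* had 3.32 and 2.43 FPKM (-0.45). *Ncbp2*, a subunit of the cap-binding complex, had 25.2 and 16.6 FPKM (-0.61). *Sympk* and *Snrpd3* had differences of 0.068 and 0.044.

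*Cenpa*, the centromeric H3 variant, was the only expressed gene among 9 other replacement variants in the tables. It had 62.3 FPKM in KPR- against 53.5 in KPR restored, with a log2 difference of -0.22 (interval -0.32 to -0.12.) *H1foo*, *H2afb1*, *H2afb2*, *H2afb3* and *H2bfm*, which are known from germ cells, were listed at 0 in both libraries.

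**Figure D4:**
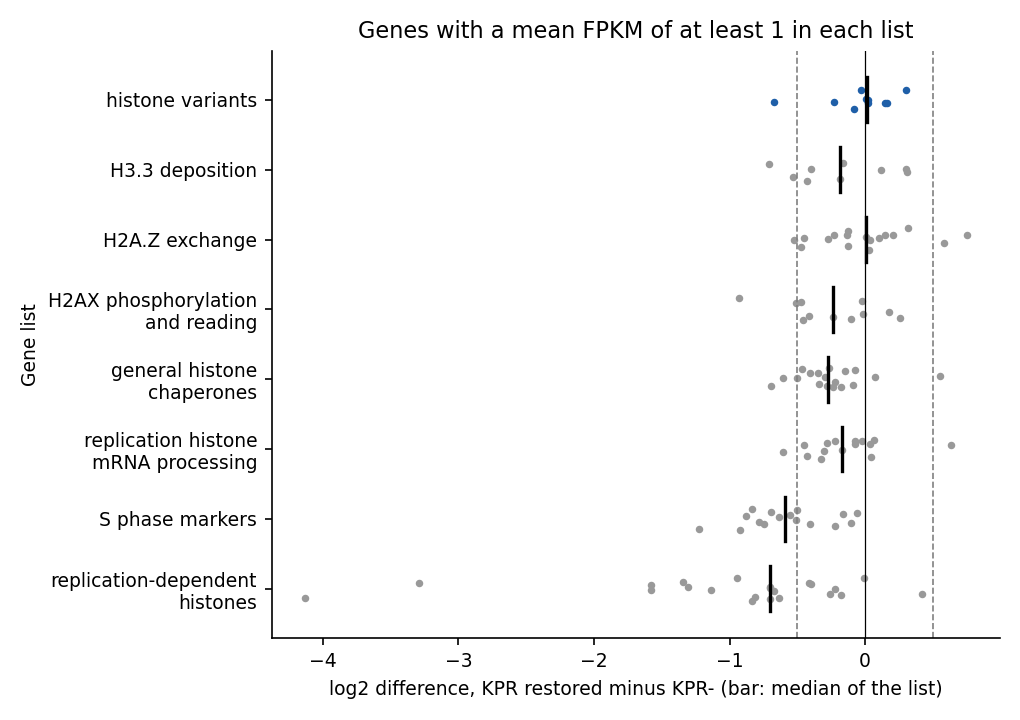
The log2 difference between KPR restored and KPR- (x axis) of each expressed gene in 8 gene lists (y axis), with a black bar at the median of each list and dashed lines at 0.5 either way. The histone variants center near 0 (median 0.012), and the S phase markers (-0.59) and replication-dependent histone genes (-0.70) lie lowest.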

How the data were processed

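Poly(A) RNA was made into directional libraries and sequenced with paired ends. After trimming, the authors mapped reads using TopHat and estimated FPKM using Cufflinks, and the deposited values are 1 FPKM per gene and library. The study also describes read counts normalized with edgeR, which were not used here. The submitters' processing notes name mm10, and versions are not given in the sources used here.

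Differences are log2(FPKM + 0.005) in KPR restored minus KPR-, which understates changes of genes near the pseudocount, with a threshold of 0.5 either way. Depth and mean fragment length (202 and 224 bases) were fitted so that the lowest 30% of values (FPKM times length) of single-transcript genes of at least 800 bases (496 and 504 genes) became whole fragments, and 79.6% and 82.1% of these lay within 0.1 of a whole number. Fragments per gene were estimated with the longest GENCODE M21 (GRCm38) transcript that has a RefSeq counterpart, or the longest of all, for 21951 genes whose effective length reached 100 bases, and are upper estimates where transcripts vary in length. Of the 23183 symbols, 22148 matched. Intervals of 95% are exact Poisson limits for levels and exact Clopper-Pearson limits for differences. The procedure was tested on libraries simulated with the same transcript lengths, which cannot check transcript choice or the assignment of shared reads. Removal of PCR copies is not stated, and intervals cover counting error only.

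Replication-dependent genes were all symbols beginning Hist1h, Hist2h or Hist3h, and Hist4h4. The members, lists and alternatives were chosen with earlier results of these data known. All members are named. From the lists of factors, S phase markers and replication-dependent genes, up to 3 largest rises and 3 largest falls by log2(FPKM + 1) are named. Where fewer genes rose, fewer rises are given. Named whatever their values were 9 genes (*Cenpa*, *Hira*, *Daxx*, *Atrx*, *Anp32e*, *Srcap*, *Slbp*, *Npat* and *Runx3*). *Hist2h2aa2*, *Hist1h4i*, *Hist3h2a*, *Hist1h1c*, *Hist1h1d*, *Hist1h1e*, *E2f1*, *Pcna* and *Mcm7* and genes listed at 0 were named after their values were seen. Cell type markers are also named, and 1 of them is not reported here. Alternatives were pseudocounts of 0.1 and 1, scaling to the same total (TPM) or upper quartile, centring on the median gene, filters on mean FPKM, a threshold of 1, the shortest coding transcript, shares from estimated fragments and leaving out H1 genes. Computations were run in Python 3.11.15 (pandas 2.3.3, numpy 2.4.6, scipy 1.17.1), and plots were drawn with matplotlib 3.10.9.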

Additional observations from a re-analysis of the deposited data

How the results depend on the processing

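The log2 difference of *H2afx* lay between -0.71 and -0.66 under all alternatives. Of 50 values of the member differences under other pseudocounts and scalings, 47 stayed within the counting interval. The exceptions came with scaling to the same upper quartile, which shifts differences by -0.042, and were -0.023 for *H2afz*, -0.037 for *H3f3a* and -0.071 for *H3f3b*. Median shifts over expressed genes were -1.1e-05 and -0.00011 for the pseudocounts, -0.0064 for the same total and -0.0086 for centring. Such shifts are small beside the intervals, so most of the 47 values could hardly have left them. With the shortest coding transcript, the intervals of *H2afv* (-0.033 to 0.64) and *H2afj* (-0.041 to 0.37) came to include 0. Under the upper quartile *H1f0* was at -0.022, so *H2afz*, *H3f3a* and *H1f0* had the other sign. With a threshold of 1, 0 members were lower. Over the genes of all lists of factors, S phase markers and other replacement variants, 0 were higher and 1 was lower, in place of 4 and 19 at 0.5. Of these 19, 11 were S phase markers. At 0.5, 12.1% of all expressed genes were higher and 9.29% lower. The shares at a threshold of 1 were not computed, so the counts at 1 have no background. Shares from estimated fragments, which are not per length, were 57.1% and 57.8% for *H3f3a*, 94.0% and 92.8% for *H2afz*, and 87.2% and 88.1% for *H1f0* in KPR- and KPR restored. With replication-dependent genes at a mean FPKM of 1 or more alone, the members made up 94.7% and 96.5% of the histone FPKM. Over genes at a mean FPKM of 10 or more, the median of the H2A.Z exchange genes was -0.12 in place of 0.0079. The median of the replication-dependent genes ran from -0.76 to -0.41. With 1 library per condition, no replicate could be left out. No paired analysis was possible because each condition has 1 library. Depth limits *H2afy2* and most replication-dependent genes.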

Other observations

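Among the replication-dependent genes, those with a poly(A) signal hexamer at the end of their annotated transcript were set apart after the values were seen, as a description. The 17 genes with the hexamer summed to 29.1 FPKM in KPR- against 20.04 in KPR restored, a log2 ratio of -0.54, and the 51 genes without it to 72.7 and 44.6 FPKM, a log2 ratio of -0.70. On estimated fragments, without *Hist1h4k*, the log2 ratios were -0.34 (interval -0.50 to -0.18) and -0.94 (interval -1.07 to -0.80). Medians over the 8 and 14 expressed genes ran the other way, at -0.82 and -0.70. *Hist3h2a*, with the hexamer, was at 5.75 and 5.72 FPKM, about 243 and 249 fragments, and *Hist1h1c* at 5.12 and 4.51 FPKM. *Hist1h1d*, without the hexamer, was at 2.81 and 1.10 FPKM, about 441 and 180 fragments. The ratios on fragments therefore depend in part on single genes, and ratios without these genes were not computed.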
